A study of Mus musculus with 16 samples.

Results

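The genes described here are 10 transcription factor and response genes that neurons induce within minutes of firing: Egr1, Egr2, Egr3, Egr4, Nr4a1, Nr4a2, Nr4a3, Ier2, Ier5 and Npas4. They were taken by name at their mm10 RefSeq positions, out of 21883 protein-coding genes, together with every fasting-enriched region that overlaps one of them or lies within 10 kb. Of the 10 genes, 7 had such a region (11 regions in all), while Egr1, Egr2 and Nr4a2 had none. The study profiled beta-hydroxybutyrylation of histone H3 lysine 9 (H3K9bhb) by chromatin immunoprecipitation and sequencing in occipital cortex homogenate of C57BL/6J mice at postnatal day 35. One group had been fasted for 48 h and the other fed ad libitum, with 4 H3K9bhb and 4 input libraries in each. The deposited data are a list of regions for each feeding state. Each region carries the authors' log likelihood ratio (log-LR), a score for a higher signal in that state than in the other, and no value per library. Depth and the spread between mice are therefore unknown here, and no result below is a test between mice.

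H3K9bhb carries an acyl group derived from beta-hydroxybutyrate, the ketone body that the liver releases during fasting and that the brain can use as fuel besides glucose. Activity-induced genes are switched on when calcium entering a firing neuron activates kinases, which act on factors already bound to DNA: CREB at cyclic AMP response elements and SRF with its partners at serum response elements, whose core is called a CArG box. The Egr genes encode zinc-finger factors, the Nr4a genes orphan nuclear receptors, the Ier genes small immediate early response proteins, and Npas4 a neuronal basic helix-loop-helix factor. In cortex these genes are widely used as markers of recent activity.

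The promoters of Egr4 and Ier5 are shown in full because both genes had a region shortly after their start, and because they differ in matches to the CREB binding core. They are the 250 bases before the start listed by RefSeq (GRCm38.p6, the build called mm10), both on the minus strand, and end at the base before the start. Capitals mark TGACG, the core of the cyclic AMP response element, on either strand (CGTCA on the other), and TATATAAG, a TATA-type sequence.
Egr4 at chr6:85513590-85513839: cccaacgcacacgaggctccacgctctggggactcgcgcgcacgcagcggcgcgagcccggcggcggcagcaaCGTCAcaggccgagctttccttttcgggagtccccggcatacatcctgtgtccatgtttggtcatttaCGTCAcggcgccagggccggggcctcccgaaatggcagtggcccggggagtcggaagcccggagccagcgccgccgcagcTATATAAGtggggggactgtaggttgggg
Ier5 at chr1:155099637-155099886: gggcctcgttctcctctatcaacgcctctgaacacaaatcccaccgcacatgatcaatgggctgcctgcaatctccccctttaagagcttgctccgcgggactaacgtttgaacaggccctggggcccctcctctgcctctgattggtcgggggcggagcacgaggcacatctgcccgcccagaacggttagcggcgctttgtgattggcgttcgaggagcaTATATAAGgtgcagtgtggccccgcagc
Egr4 held TGACG at 2 places, and Ier5 had no match to it in this stretch. Both held TATATAAG, from -29 to -22 bp in Egr4 and from -28 to -21 bp in Ier5, with the listed start counted as 0.

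Of the 10 genes, 7 have a start in the RefSeq promoter table: Egr2, Egr4, Nr4a1, Nr4a2, Nr4a3, Ier5 and Npas4. In 6 of these, all but Ier5, the 250 bases before a start held TGACG on either strand. Counted by start it was 8 of the 11 (Egr2 has 5), against 20.2% of the 21262 listed starts of protein-coding genes. The Egr2 starts that held it lie close together and share the same sites. TGACG also contains a CpG, a C followed by a G. All 11 starts were above the median CpG count (15 to 44, against 10), which the 20.2% does not allow for. The closest pair of sites that fits in 30 bases is shown for Npas4 and Nr4a3, which had a region near the start, and for Nr4a2 and Egr2, which had none. Capitals mark TGACG or CGTCA and, in Egr2, also a CArG box.
Npas4 at chr19:4990133-4990153, minus strand: cgaCGTCAcgggaTGACGtcg
Nr4a3 at chr4:48045089-48045107, plus strand: tgtCGTCAcatTGACGtct
Nr4a2 at chr2:57124107-57124129, minus strand: ggcTGACGgggccgcTGACGcgc
Egr2 at chr10:67537794-67537821, plus strand: agtCCATATATGGgcagcgaCGTCAcgg
Paired sites thus stood in genes with a region and in genes without one. A CArG box was found in 1 of the 7 genes, Egr2, which gave 4 of the 11 starts with one. Some of these starts share the same box. Over all listed starts the share was 1.39%. TATATAAG, searched for after these sequences had been read, was found in 3 of the 7 (Egr4, Ier5 and Npas4). By start it was 3 of the 11, against 0.931% of all starts. The full palindrome TGACGTCA, which contains TGACG (1.92% of all starts), the Egr binding sequence GCGTGGGCG (0.72%) and the Nr4a binding sequence AAAGGTCA (1.2%) had no match in the 7. TATAAA was found in Nr4a2 alone, on the other strand from -164 to -159 bp, against 11.6% of all starts. A match is only a run of letters, and the 250 bases leave out enhancers and the regions themselves.

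**Figure D1:**
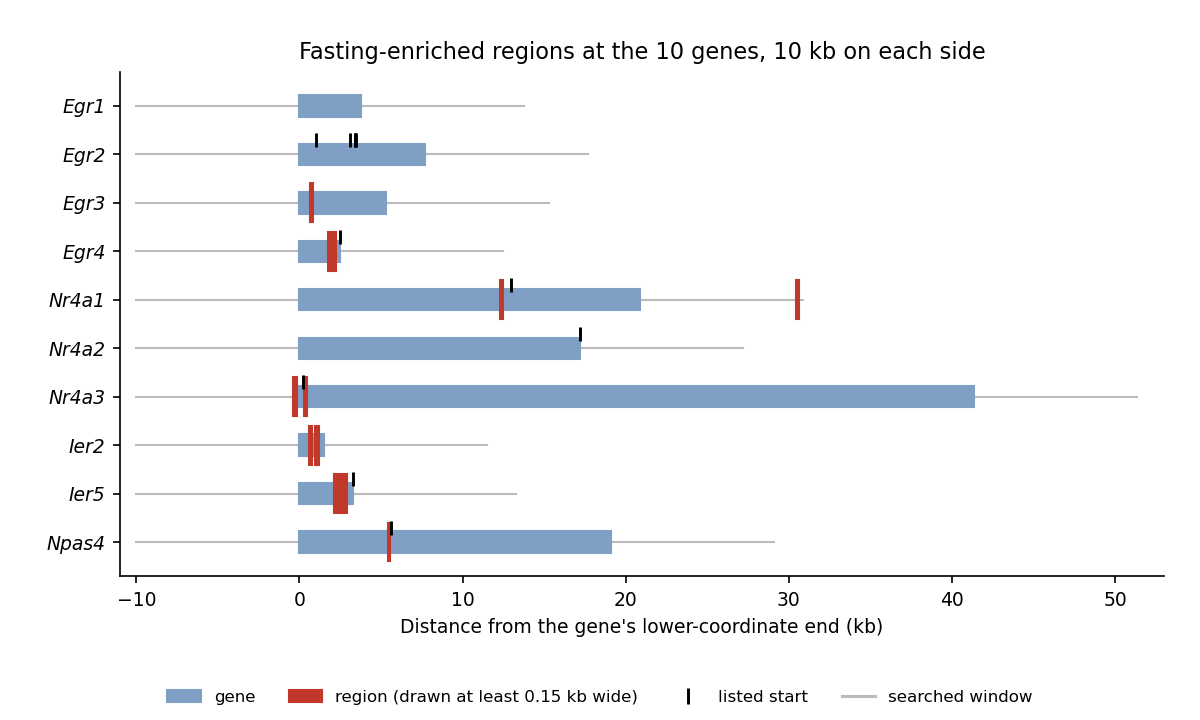
Map of the 10 genes, with the distance in kb from each gene's lower-coordinate end on the x axis, genes as blue bars, fasting-enriched regions as red marks, starts listed by RefSeq as black ticks and the searched 10 kb on each side in grey. Regions sit on or beside 7 of the genes, and the windows of Egr1, Egr2 and Nr4a2 are empty.

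A region within 10 kb was found for 7 of the 10 genes, against 23.3% of all protein-coding genes. At a closer range, 7 of 10 had a region overlapping the gene itself, against 16.4%, and 7 of 10 within 1 kb of it, against 18.1%. The 10 genes are compact, with a median length of 6508.5 bp against 17170 bp for all protein-coding genes, and a short gene offers less room for an overlap. Among the 16053 protein-coding genes no longer than the longest of the 10 (Nr4a3, 41370 bp), 18.7% had a region within 10 kb and 12.7% within 1 kb. The count is not independent evidence, since activity-induced genes had been seen to hold regions in these data before the 10 were listed. No region of the ad libitum list, which holds 1, lay within 10 kb of any of them.

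More than 1 region was found at 4 of the genes within 10 kb (Egr4, Nr4a1, Nr4a3 and Ier2), against 5.08% of protein-coding genes, and at 3 of them within 1 kb (Egr4, Nr4a3 and Ier2), against 3.36%. At these 3 the regions stood close together, separated by 131 bp in Egr4, 164 bp in Ier2 and 436 bp around the start of Nr4a3. Over the whole list, 19.3% of regions on assembled chromosomes had another within 1 kb. That limit is wider than these spacings, and the share at such spacings was not counted. With close regions merged, the 11 regions became 8.

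Of the Egr genes, Egr4 and Egr3 had regions and Egr1 and Egr2 had none. Egr4, a zinc-finger factor of 2469 bp at chromosome 6, 85511121 to 85513589, held regions of log-LR 5.70 (85512856 to 85513058, 203 bp wide) and 4.58 (85513190 to 85513380, 191 bp). Both lie downstream of the start, at 531 to 733 bp and at 209 to 399 bp. Egr3, a close relative with roles in synaptic plasticity and muscle spindles, spans 70077317 to 70082613 on chromosome 14. It held 1 region of log-LR 4.34 and 184 bp, at 70077953 to 70078136, with its edge 636 bp from the nearer gene end and 4477 bp from the other. The region was inside the gene.

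Egr1, the family member most used as an activity marker, spans 34861207 to 34864956 on chromosome 18. The nearest fasting-enriched region was 83.9 kb away, at Kdm3b, with a log-LR of 4.42. Egr2, best known for its part in hindbrain patterning and peripheral myelination, lies at chromosome 10, 67534469 to 67542188. Its nearest region, of log-LR 4.59, was 249 kb away, so that no region fell within 100 kb of the gene. Egr2 was the only one of the 10 genes with none within 100 kb, and after it the farthest nearest region was 86.0 kb away, for Nr4a2. Long stretches without a region also occurred beside Egr3, where the next region beyond its own was 319 kb away. Absence from the list says only that a gene did not meet the authors' criterion, and unchanged marking and no marking cannot be told apart.

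The Nr4a genes also differed among themselves. Nr4a3 (chromosome 4, 48045078 to 48086447) had the region of highest log-LR of the 11, 6.48, at 48044670 to 48044946 (277 bp wide, 132 bp outside the gene). A narrower one of 121 bp, with a log-LR of 5.10, lay inside it at 48045383 to 48045503. Relative to the listed start at 48045305 they ran from -635 to -359 bp and from 78 to 198 bp, one on each side. Regions wholly on both sides were found within 1 kb of the start in 51 of 1767 genes that have 1 listed start and a region there (2.89%).

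Nr4a1, also called Nur77, spans 101253902 to 101274795 on chromosome 15. Its own region, at 101266171 to 101266364, was the lowest of the 11 in log-LR (3.75, 194 bp wide). It lay 8431 bp from the nearer gene end but only -675 to -482 bp from the listed start, which is inside the annotated gene at 101266846. The other region within 10 kb, at 101284368 to 101284489 (log-LR 4.87, 122 bp), was 9573 bp from Nr4a1 and overlapped Atg101, which encodes a subunit of the complex that starts autophagy. It was the one region of the 11 that overlapped another protein-coding gene, and the one nearest to the limit of 10 kb. The nearest regions beyond that limit were 24.6 kb from Ier2 (log-LR 9.02, overlapping Nacc1 and Trmt1) and 29.2 kb from Nr4a1 (7.70, at Grasp).

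Nr4a2, or Nurr1, known for its role in dopamine neurons, lies at chromosome 2, 57106830 to 57124003. It had no region within 10 kb, and the nearest, 86.0 kb away, had a log-LR of 4.30. Nr4a2 was the nearest protein-coding gene to that region. Within 100 kb there were 4 regions, also the count at Egr4, Nr4a1 and Npas4. The promoter of Nr4a2 was the richest of the 7 in CpG dinucleotides, with 44 in the 250 bases before the start.

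Both Ier genes had regions inside the gene. Ier5, which acts with the heat shock factor HSF1, spans 155096367 to 155099636 on chromosome 1. It held 1 region of log-LR 5.61 at 155098506 to 155099257, which runs from 379 to 1130 bp downstream of the start. With a width of 752 bp it was the widest of the 11, and only 77 of all 8404 fasting-enriched regions were at least as wide. Ier2, a gene of 1522 bp at chromosome 8, 84661331 to 84662852, held regions of log-LR 5.27 (84661908 to 84662121) and 4.31 (84662286 to 84662499), each 214 bp wide. Their edges were 577 and 353 bp from the nearer gene end, so that both stood in the middle part of the gene.

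Npas4, a factor that is specific to neurons and regulates inhibitory synapses, spans 4984353 to 5003439 on chromosome 19. Its region at 4989756 to 4989891 had a log-LR of 3.96 and a width of 136 bp. The region lay 5403 bp from the nearer gene end, yet 80 to 215 bp downstream of the listed start at 4989971. Nr4a1 and Npas4 are thus the genes whose regions would be missed by a limit of 1 kb to an annotated gene end.

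**Figure D2:**
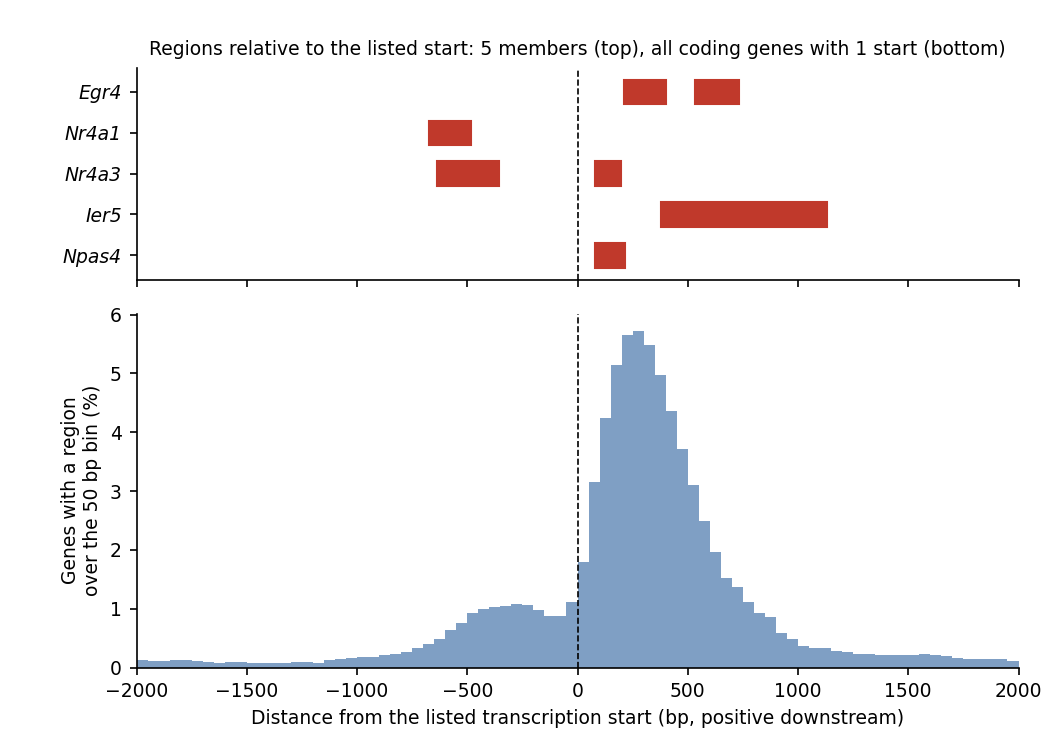
Position of fasting-enriched regions relative to the transcription start listed by RefSeq, in bp, with positive values downstream. The upper panel shows the 7 regions at 5 of the genes as red bars, and the lower panel gives, for the 14730 protein-coding genes with 1 listed start, the percentage with a region over each 50 bp bin, highest (5.73%) from 250 to 299 bp.

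Around the listed starts, 5 of the 7 genes that have one held a region within 1 kb of it, against 13.2% of the 17491 protein-coding genes with a listed start. These 5 were Egr4, Nr4a1, Nr4a3, Ier5 and Npas4, with 7 regions. Of the 7 regions 5 lay wholly downstream of the start, 2 wholly upstream (at Nr4a1 and Nr4a3), and 0 covered it. The same order was seen over all 1910 regions within 1 kb of a single listed start. Of these, 75.9% lay wholly downstream, 16.6% wholly upstream and 7.54% over the start. Upstream and downstream hold for the listed start only, and 62.2% of single listed starts coincide with the end of the annotated gene. The percentage of genes with a region was 1.79% in the 50 bp from the start on and 5.73% from 250 to 299 bp. Of the 5 downstream regions, only that of Egr4 at 209 to 399 bp covers this bin. The regions of Npas4 and Nr4a3 end before it, and that of Ier5 and the other of Egr4 begin beyond it. No value here shows where H3K9bhb lies when fed, so whether these positions differ from marked chromatin in general was not tested.

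The 7 genes with a listed start had promoters above the median in CpG. The number of CpG dinucleotides in the 250 bases before the start was 44 in Nr4a2, 34 in Nr4a1, 28 in Egr4, 18 in Nr4a3 and 16 in both Ier5 and Npas4. At the 5 listed starts of Egr2 it was 15 to 26. The median over all listed starts was 10, with quartiles of 3 and 19, so each of these 11 starts was above the median. Across the genes with 1 listed start, the share with a region within 1 kb of it was 0.489% in the lowest of 4 equal classes by CpG count, 4.7% and 15.7% in the next classes, and 27.1% in the highest. The share of the genes described here thus stands against a background that itself is higher at CpG-rich starts, and the part of CpG content in it was not tested. Nr4a2, with the most CpG, was among the genes without a region, as were most genes of the highest class.

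**Figure D3:**
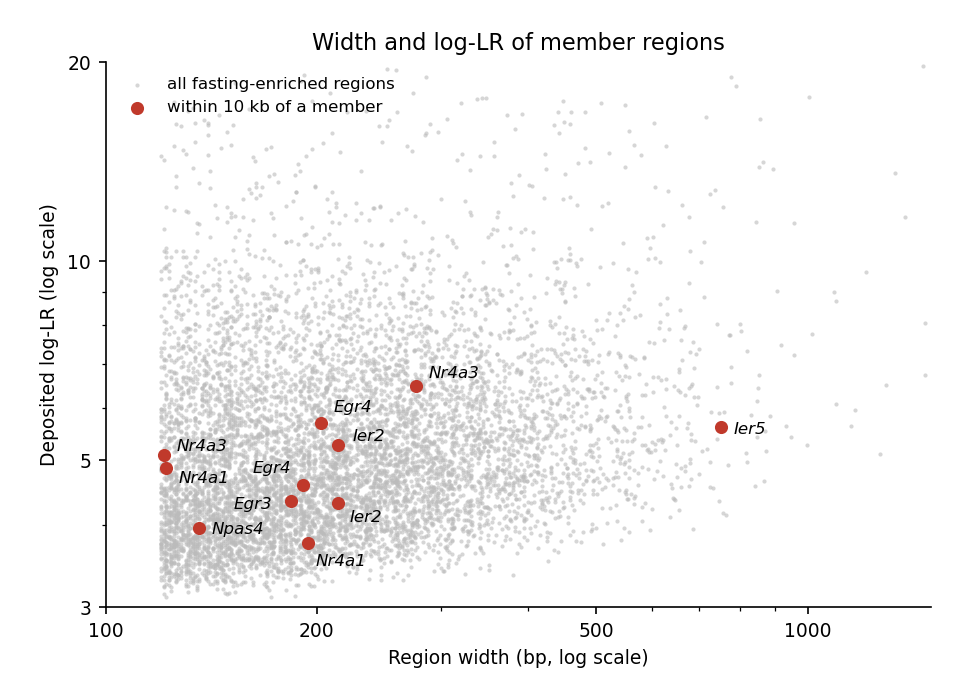
Width in bp (x, log scale) and deposited log-LR (y, log scale) of the 11 regions within 10 kb of the genes, in red and labelled by gene, over all fasting-enriched regions in grey, of which 201 lie beyond the axes. In log-LR the labelled regions sit in the body of the distribution, between 3.75 and 6.48. In width they run from 121 bp to the 752 bp of Ier5, which stands apart.

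By their medians, the 11 regions lay near the centre of the whole list in score and width. Their log-LR had a median of 4.87, against 4.96 over all 8404 fasting-enriched regions, and ranged from 3.75 to 6.48. Of the 11, 5 were above the median of all regions, and 1 (the outer region of Nr4a3) was above the upper quartile of 6.28. Ordered by its highest region, Nr4a3 (6.48) came first, followed by Egr4 (5.70), Ier5 (5.61), Ier2 (5.27), Nr4a1 (4.87, the region over Atg101), Egr3 (4.34) and Npas4 (3.96). By the region inside the gene, at 3.75, Nr4a1 came last. With no replicate values, it cannot be said which neighbours in that order differ. The median width was 194 bp, against 205 bp for all regions. Widths ran from 121 bp, near the smallest of the list (120 bp), to 752 bp. Together the 11 regions covered 2608 bp.

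Restricting the list to a log-LR of at least 5 left 5 regions at 4 genes (Egr4, Nr4a3, Ier2 and Ier5), against 12.5% of protein-coding genes with a region within 10 kb. The regions of Egr3, Nr4a1 and Npas4 all fell below that limit.

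**Figure D4:**
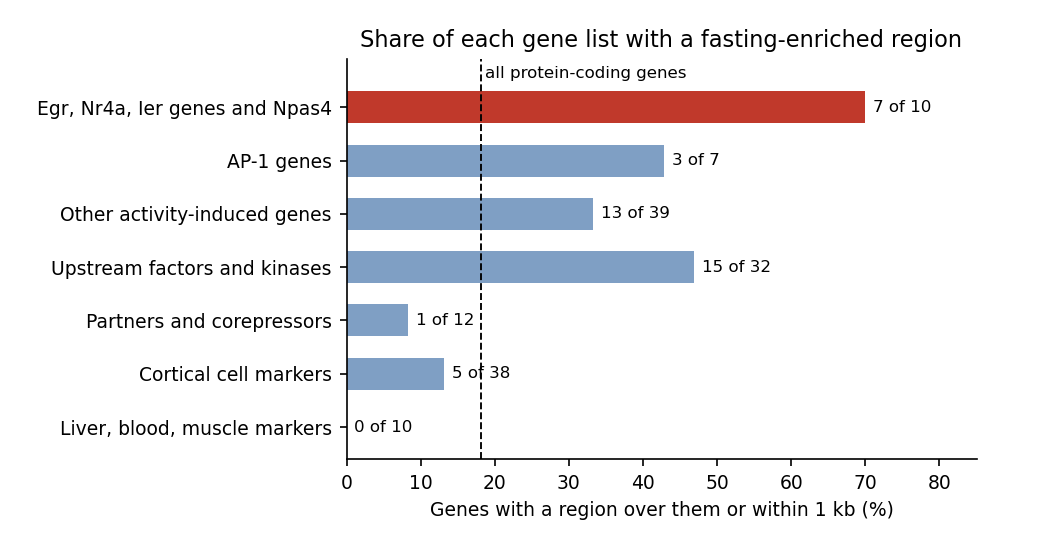
Percentage of each gene list with a fasting-enriched region over the gene or within 1 kb of it, with the number of genes beside each bar, the 10 genes in red and other lists in blue. The dashed line marks all protein-coding genes (18.1%), and the bars run from 0 of 10 to 7 of 10; markers are pooled, and among the separate marker lists those of oligodendrocytes (33.3%) and excitatory neurons (28.6%) also lie above the line.

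Other genes of the same response were counted from lists written down with earlier results known. Of the AP-1 genes, which encode the Fos and Jun proteins, 3 of 7 had a region within 1 kb, against 18.1% of protein-coding genes. They were Jun (log-LR 7.24), Junb (4.41) and Fosl2 (4.19). All 7 AP-1 genes are no longer than Nr4a3, and 12.7% of all protein-coding genes of such length had a region within 1 kb. Of the other activity-induced genes, 13 of 39 had a region within 1 kb (33.3%), and 11 of the 36 no longer than Nr4a3. The highest were Cebpb, a leucine zipper factor (11.0), Plk2, a kinase of synaptic scaling (6.65), Gadd45g, a growth arrest and DNA damage gene (6.39), and Tiparp, an ADP-ribosyltransferase (5.55). The microRNA gene Mir132, listed with them but not protein-coding, had 2 regions within 1 kb, the higher at 6.43.

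Upstream regulators of these genes were listed as well: factors, kinases and phosphatase subunits. Of these, 15 of 32 had a region within 1 kb, against 18.1% of all protein-coding genes. The highest were the calcium-dependent kinase gene Camk2a (9.49), Mef2d, a factor of activity-dependent transcription (9.35), the SRF coactivator gene Mrtfb (7.68) and Crebbp, the acetyltransferase that binds CREB (7.05). Many of these genes are long: among the 10 of them no longer than Nr4a3, 2 had a region within 1 kb, near the 12.7% of all protein-coding genes of such length. Around a listed start, a region was found within 1 kb for 9 of the 24 upstream genes that have one. It was 9 of 31 for the other activity-induced genes and 2 of 6 for the AP-1 genes. The share was 13.2% of all protein-coding genes with a listed start. A further list held partners, corepressors and relatives of the 10 genes, such as Nab1, Nab2, the retinoid X receptors and other Npas genes. A region within 1 kb was found for 1 of these 12 (8.33%, against the same 18.1%). It was the long gene Npas3 (5.44), a relative of Npas4. Within 1 kb of a listed start, 0 of the 10 genes of this list that have one held a region, against the same 13.2%. Median log-LR, taken over the highest region of each gene with one within 1 kb, was 5.27 for the 10 genes, 4.41 for AP-1, 4.68 for the other activity-induced genes, 5.69 for the upstream genes and 5.13 over all protein-coding genes. Counts in lists of this size leave wide error, and no difference between lists was tested.

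No expression was measured, so the labelled tissue could not be checked by its markers. A region within 1 kb was found for 2 of 7 markers of excitatory neurons, 1 of 7 of inhibitory neurons and 2 of 6 of oligodendrocytes, and for 0 of 6 each of astrocytes, microglia, and endothelial and mural cells. Pooled, these were 5 of 38 (13.2%), and markers of liver, blood and skeletal muscle had 0 of 10, beside 18.1% of all protein-coding genes. At these sizes neither count is a result about the markers. Cell type proportions and marking per cell cannot be told apart in a homogenate.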

How the data were processed

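Chromatin was immunoprecipitated with an antibody against H3K9bhb, per the labels' protocols. The submitters' processing notes name Bowtie2, MACS2 and the build mm10, with no role or version. The authors deposited lists of regions with a log-LR each, per the file headers, used here as a score. Region starts and ends, in bp, are other values the authors deposited. The sources used here do not give the log base, the cutoff, the depth scaling or whether libraries were pooled. Unequal depth or yield of the immunoprecipitations would change which regions passed in each direction.

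Starts were read as counted from 0 and are printed from 1. Distances are edge to edge to genes of the RefSeq table for GRCm38.p6, and all 10 genes matched. Starts, strand and sequence came from RefSeq's promoter table (250 bases before and 50 after each start), which holds 7 of the 10. No gene model, exon or UTR was used. Shares of protein-coding genes on chromosomes 1 to 19, X and Y served as background. The genes, lists and settings were chosen with earlier results of these data known. The naming rule took all 10 genes, up to 4 genes per list by log-LR, and genes overlapped by their regions; genes nearest to regions beyond 10 kb and TATATAAG were chosen after their values were seen. Counting was tested on simulated regions. The scripts ran in Python 3.11.15 with pandas 2.3.3, numpy 2.4.6 and scipy 1.17.1, and plots were drawn with matplotlib 3.10.9.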

Additional observations from a re-analysis of the deposited data

How the results depend on the processing

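The count of 7 genes was the same with overlap of the gene only, with windows of 1, 5 and 20 kb, with the region's centre in place of its edge, and with regions kept only where the nearest protein-coding gene was one of the 10. It moved to 4, and the count of regions to 5, at a log-LR of at least 5. The share of protein-coding genes with a region was 16.4% with overlap only, 18.1% within 1 kb, 20.3% within 5 kb and 29.2% within 20 kb. It was 18.7% among genes no longer than Nr4a3, 25.5% on the chromosomes that hold the 10 genes and, in a setting chosen after seeing the data, 12.5% at a log-LR of at least 5. A narrower window or a log-LR limit can only lower these counts and shares, and a wider window can only raise them. For the shares by gene length and by chromosome, the cause was not tested. Merging regions within 1 kb gave 8 regions with a median width of 359.5 bp. The number of regions lay between 9 and 11 under the other windows and rules, and the median log-LR between 4.58 and 4.87. No paired analysis was possible because the deposited regions have 1 score each and no library columns, and leaving out replicates was not run for the same reason.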
